A study of Xenopus tropicalis with 8 samples.

Results

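The 5 genes described here, junb, jund, fosl1, ier2 and per1, belong to the immediate early genes. They were read by 5 of the 32899 distinct probes on the array, 1 probe per gene, matched through the transcript accession each probe carries. They were chosen by their measured difference between exposed and control embryos, and their probes had passed the test of that difference. Among the other immediate early genes measured, crem passed it too and is not among the 5. Because of this choice, the differences of the 5 are given below as a description without p-values. The array held 4639 genes with a symbol, of which 2941 were tested. Probes had to be well above background on all arrays of a group to be tested, and junb, ier2 and per1 were so on all 8 arrays, while jund and fosl1 passed only through the group where they were higher. All 5 were thus among the 20289 probes tested, of which 14.1% differed between the groups, 5.07% lower and 9.06% higher in exposed embryos. The groups of 4 arrays did not overlap for 21.6% of tested probes, 8.86% lower and 12.7% higher in exposed embryos. None of these shares can be set against the 5 genes, since passing the test was the reason for choosing them.

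The samples were total RNA from whole embryos of the western clawed frog, Xenopus tropicalis, labelled as stage 12 to 46. There were 4 untreated control samples and 4 samples exposed during development to Disperse Yellow 7 (DY7), a textile azo dye, at 887 ppm. The study asked how the dye alters gene expression in developing embryos, and its text speaks of 4 exposed groups of embryos per arm. The labels give no strain, no vehicle and no number of embryos per sample. Each sample was read on 1 single-colour (Cy3) Agilent array, and each of 2 slides held 2 control and 2 DY7 arrays of the same replicate numbers.

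Immediate early genes are transcribed within minutes of a stimulus, without new protein synthesis, by factors already present in the cell such as SRF and CREB. Jun and Fos proteins are among their products. They pair through leucine zippers into the transcription factor AP-1, whose make-up of partners changes with the stimulus. In vertebrate embryos they respond to growth factors and to wounding, and most of their transcripts are short-lived. In whole-embryo RNA, fewer cells expressing a gene and less of its RNA per cell cannot be told apart.

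The level of a gene on an array is its log2 processed signal minus the 75th percentile of that array, so 0 is the level of the probe at that percentile. That percentile lay at a signal of 162 to 327 on control arrays and 126 to 202 on DY7 arrays. Between 51.6% (control 2) and 75.9% (control 4) of probes were well above background, and array profiles correlated at 0.955 to 0.987 between the groups. Of 8 measured larval tissue markers, 7 were well above background on all 8 arrays, and 3 were lower in DY7 (tnnt1, cryga.1 and cryga.7) and 1 higher (fabp6). Over all named genes tested, 4.93% were called lower and 8.67% higher, 13.6% in all. The log2 of the summed level of the larval markers ran from 7.31 to 8.24 in controls and from 7.57 to 7.94 in DY7. Most of that sum came from cpa1 on a cross-hybridising probe, at 7.12 to 8.11 in controls, so it does not describe the larval tissues as a whole. Of 10 gastrula markers on the array 1, nog, was measured, on a cross-hybridising probe. Its level lay between 5.40 and 5.56 in controls and between 5.27 and 5.72 in DY7. Of 4 blood and immune markers 1, epor, was higher, and the log2 of the summed level of the 4 ran from 3.51 to 4.23 in controls and from 3.95 to 5.05 in DY7, with all 4 above background on every array. The brightest of the 4 was cd68, which weighs most in that sum. The part of these tissue differences in the results below was not tested.

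After scaling, DY7 embryos had less junb and per1 RNA, less fosl1 and ier2 signal and more jund signal than controls. The groups did not overlap for any of the 5. The falls were 2.99-fold for junb and for fosl1, 1.75-fold for ier2 and 1.39-fold for per1, and the rise of jund was 1.80-fold. The folds of fosl1 and jund rest in part on signals near background, as fosl1 was well above it on 3 of 4 DY7 arrays and jund on 3 of 4 control arrays. The probes of junb and per1 are named as specific in the array design and read curated transcripts, each from 2 spots per array. Those of jund, fosl1 and ier2 have 1 spot each and are named as cross-hybridising, and which other transcripts they read is not known.

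**Figure D1:**
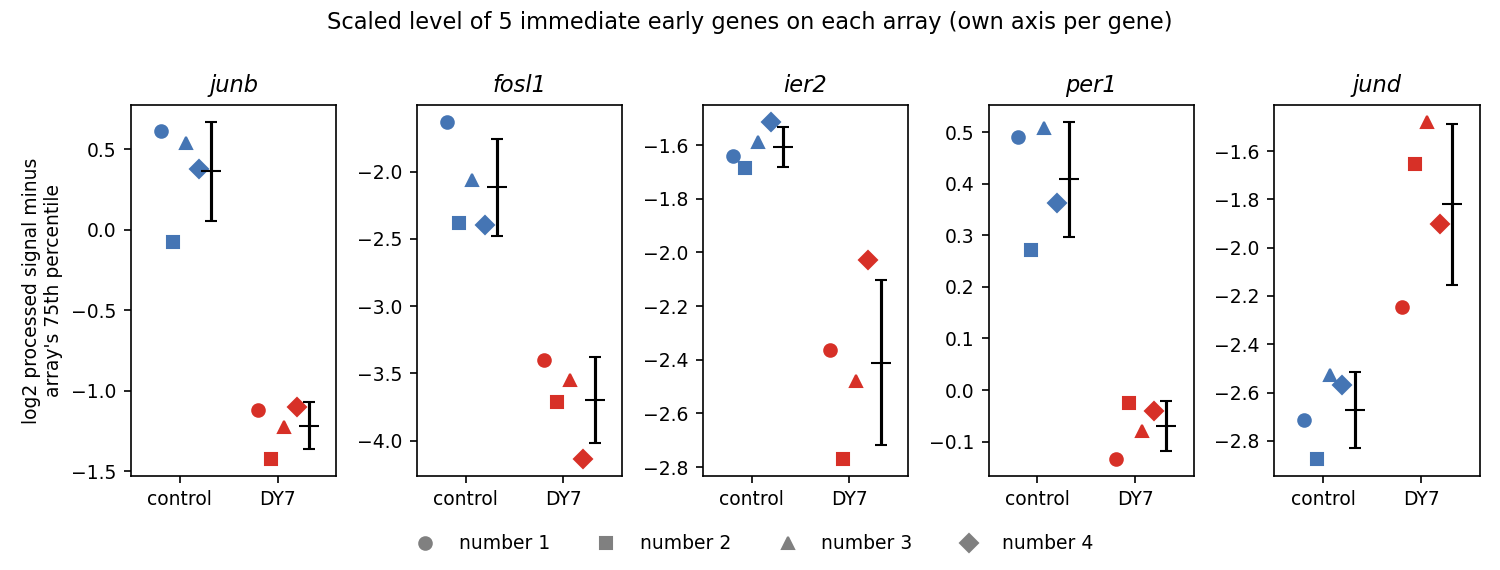
Each panel plots 1 gene on its own axis, with the scaled log2 level of the 4 control arrays (blue) and the 4 DY7 arrays (red); symbols mark the replicate number, and black bars show the group mean with its SD. The 4 DY7 arrays lie below all control arrays for junb, fosl1, ier2 and per1 and above them for jund.

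The 2 Jun genes measured, both chosen from this contrast, differed in the direction of their signal, junb being lower and jund higher in DY7. The jund signal came from a cross-hybridising probe, and jun itself had no named probe on the array. The gene junb encodes a Jun protein that is strongly induced by growth factors and, in mammals, often counteracts c-Jun. Its level was 0.61, -0.07, 0.54 and 0.38 in controls 1 to 4, and in DY7 samples 1 to 4 it was -1.12, -1.42, -1.22 and -1.10. Control 2, where the smallest share of probes was above background, was the lowest control, and it still lay 1.03 above the highest DY7 array. The mean fell from 0.36 ± 0.31 to -1.22 ± 0.15 (SD, n = 4), a log2 difference of -1.58 ± 0.16 (SE).

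Before scaling, the junb signal was 371, 154, 324 and 424 scanner units in controls 1 to 4 and 77.3, 46.8, 77.5 and 94.2 in DY7 samples 1 to 4. The difference was thus present before scaling, with DY7 the lower in each of the 4 same-numbered pairs. DY7 arrays were dimmer in general, so the direction in the pairs says little alone. Unscaled, the junb difference was -2.05 on the log2 scale, against -0.42 for the median of all tested probes. The paired log2 differences of scaled levels were -1.73, -1.35, -1.76 and -1.48. In processed signal, both spots of the junb probe gave nearly the same level on every array, with a largest difference between them of 0.22 on the log2 scale. Their raw medians differed more on slide 1, as on control 1 (247 and 401), than on slide 2, as on control 4 (434.5 and 474). The raw junb spot was 2.89 to 11.9 times as bright as the glass around it in controls and 1.36 to 3.48 times in DY7.

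The gene jund encodes the Jun protein that most cells hold without a stimulus. Its level was -2.71, -2.87, -2.53 and -2.57 in controls 1 to 4 and -2.25, -1.65, -1.48 and -1.90 in DY7 samples 1 to 4. All DY7 arrays stood above all controls, but DY7 1 was only 0.28 above the highest control. The mean went from -2.67 ± 0.16 to -1.82 ± 0.33 (SD, n = 4), a difference of 0.85 ± 0.17 (SE). The probe was well above background on 3 of 4 control arrays and on 4 of 4 DY7 arrays.

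For jund the direction differed between pairs before scaling. At that stage its signal was 37.1, 22.1, 38.8 and 55.0 in controls 1 to 4 and 35.4, 40.0, 65.0 and 54.2 in DY7 samples 1 to 4. These unscaled groups overlapped, and DY7 was the lower of the pair for numbers 1 and 4, that is in 2 of 4 pairs. The unscaled log2 difference was 0.38, while the median of all tested probes stood at -0.42 without scaling. Relative to that median the jund difference was 0.79. Scaling cannot change this value, since it subtracts 1 constant from all probes of an array, so the value is no separate support for the rise. Other processing did change it, to 0.74 with quantile normalization and 0.24 after normexp background correction.

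**Figure D2:**
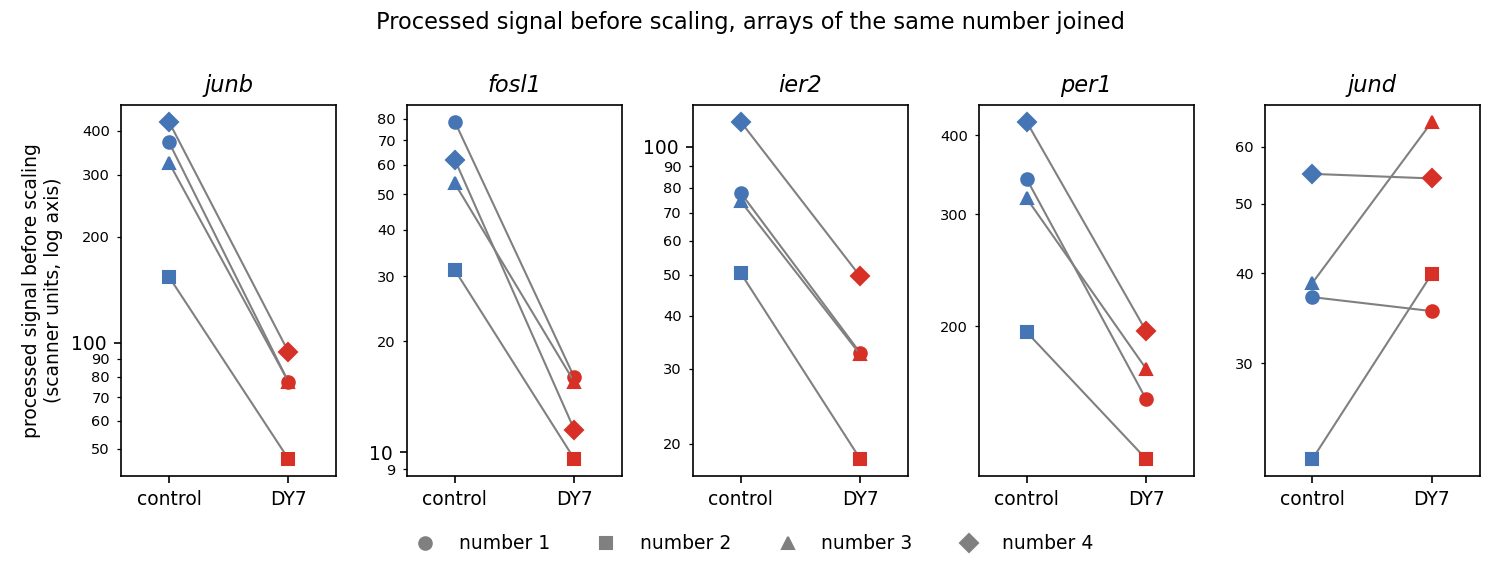
Each panel plots the processed signal of 1 gene before scaling, in scanner units on a log axis, with arrays of the same replicate number joined by a line. All 4 lines fall for junb, fosl1, ier2 and per1; for jund, 2 fall slightly and 2 rise.

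The gene fosl1 encodes the Fos family protein Fra-1, which binds DNA only as the partner of another zipper protein such as a Jun. Its level was -1.63, -2.38, -2.06 and -2.40 in controls 1 to 4 and -3.40, -3.71, -3.55 and -4.13 in DY7 samples 1 to 4. The gap between the groups was 1.00, and the test that chose the gene favoured such a gap. The mean fell from -2.12 ± 0.36 to -3.70 ± 0.32 (SD, n = 4), a difference of -1.58 ± 0.21 (SE).

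In DY7 the fosl1 probe was at the edge of detection. Its signal there was 15.9, 9.59, 15.5 and 11.5, against 78.5, 31.1, 53.4 and 61.9 in controls 1 to 4. It was well above background on 3 of 4 DY7 arrays, the exception being DY7 2. The raw spot was 0.917 to 1.63 times its local background in DY7 and 1.36 to 2.93 times in controls.

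The gene ier2 encodes a small nuclear protein, which in zebrafish acts downstream of fibroblast growth factor in setting left and right. Its level was -1.64, -1.68, -1.59 and -1.51 in controls 1 to 4 and -2.36, -2.77, -2.48 and -2.03 in DY7 samples 1 to 4. The controls lay within a narrow band, and the DY7 arrays spread more widely below it. The mean fell from -1.61 ± 0.074 to -2.41 ± 0.31 (SD, n = 4), a difference of -0.80 ± 0.15 (SE). The unscaled ier2 signal was 77.9, 50.4, 74.4 and 114 on control arrays and 32.7, 18.4, 32.4 and 49.5 in DY7 samples 1 to 4. The probe was above background on all 8 arrays, although its raw spot on DY7 1 and DY7 2 was only 1.04 times the local background.

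The gene per1 encodes a repressor of the circadian clock that is itself quickly induced, in mammals, by light and glucocorticoids. Its level was 0.49, 0.27, 0.51 and 0.36 in controls 1 to 4 and -0.13, -0.026, -0.079 and -0.042 in DY7 samples 1 to 4. The groups were 0.30 apart. The mean fell from 0.41 ± 0.11 to -0.07 ± 0.048 (SD, n = 4), a difference of -0.48 ± 0.094 (SE), the smallest of the 5 in these scaled values. Before scaling, the per1 signal was 341, 196, 318 and 420 on control arrays and 153, 123, 171 and 196 in DY7 samples 1 to 4. These unscaled groups overlapped, with DY7 4 just above control 2. Its 2 spots differed by at most 0.075 on the log2 scale on any array.

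The genes differed in how much they varied among arrays of the same group. The junb SD in controls was larger than that of 79.5% of tested probes, and than that of 90.1% of the 1000 probes nearest to it in brightness. Without control 2, the lowest control, the junb difference was -1.73. The SD of per1 in DY7 was larger than that of only 2.3% of tested probes, and that of ier2 in controls than that of 7.41%. In DY7, by contrast, the SD of ier2 exceeded that of 81.4% of probes. For fosl1 the share was 85.6% in controls and 82.9% in DY7, and for jund 39.8% and 84.7%. It was 36.4% for junb in DY7 and 20.4% for per1 in controls. Among the 1000 probes nearest in brightness, the share for fosl1 was 51.8% in controls and 59.4% in DY7, so its spread was ordinary for a dim probe. Counted in that way, it was 15.8% and 72.9% for jund, 3.2% and 71.5% for ier2 and 30.1% and 2.5% for per1. For junb in DY7 it was 37.2%. The test that chose the genes favours a small spread within groups, so low SDs here follow in part from the choice.

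The differences were alike on the 2 slides. Within slide 1 and slide 2 the log2 differences were -1.54 and -1.62 for junb, -1.55 and -1.61 for fosl1, and -0.46 and -0.50 for per1. For ier2 they were -0.90 and -0.70, and for jund 0.84 and 0.86. The test that chose the genes left the slide out, so a difference that varied between slides counted there as spread within groups. The choice thus favoured genes whose differences were alike on the 2 slides, and their likeness here follows in part from it. A test of the difference between slides gave 0 of 20289 probes past the threshold (limma interaction term, Benjamini-Hochberg adjusted p, 0% of probes). By the same test, 253 probes had an unadjusted p under 0.05. That is a smaller share of the 20289 probes than 0.05, the share such a test gives on average where no probe differs. The change from slide 1 to slide 2 was -0.078 ± 0.34 (SE) for junb, 0.20 ± 0.29 for ier2, -0.058 ± 0.43 for fosl1, -0.036 ± 0.22 for per1 and 0.015 ± 0.33 for jund, with an adjusted p of 1.00 for each. With standard errors of this size, small differences between the slides were not detectable.

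The authors' own normalized log2 values of the same arrays gave differences of -1.57 for junb, -1.73 for fosl1, -0.89 for ier2, -0.44 for per1 and 0.75 for jund. In that table, too, the groups did not overlap for any of the 5. It holds the arrays by which the genes were chosen, so this is no separate support. A fit on those values called 4099 of 20289 tested probes. After normexp background correction with an offset of 50 the differences shrank to -0.96 for junb, -0.38 for fosl1, -0.28 for ier2, -0.37 for per1 and 0.24 for jund. The shrinkage was strongest for the dim probes of fosl1, ier2 and jund. While junb and fosl1 were alike in the scaled values, fosl1 stood close to per1 after normexp. The normexp values start from raw median spot signals and are quantile normalized, so they differ from the scaled values in more than the background correction.

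**Figure D3:**
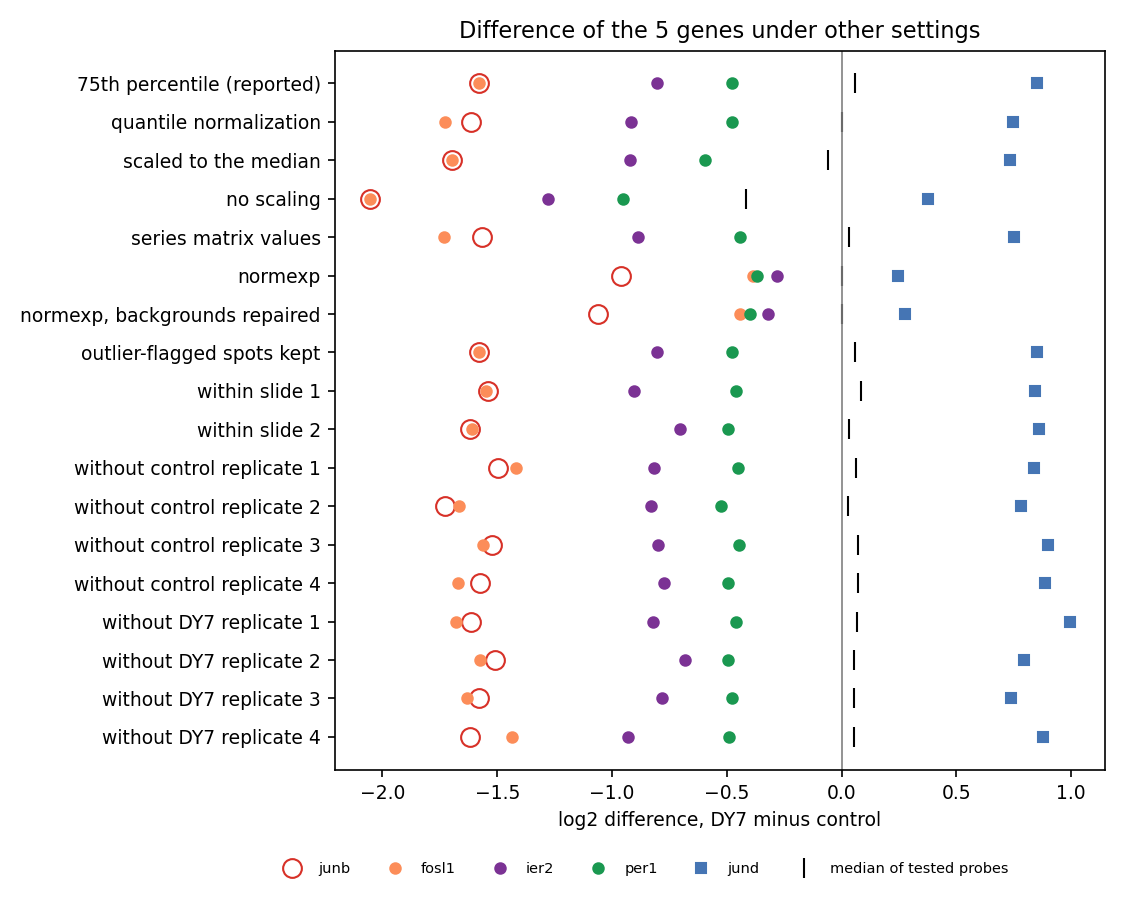
Log2 difference (DY7 minus control) of each of the 5 genes (junb as open circles, jund as squares) under each setting, with the median of all tested probes as a black bar. Every value of junb, fosl1, ier2 and per1 lies below 0 and every value of jund above it, and the normexp settings bring fosl1, ier2 and jund closest to 0.

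The AP-1 family list holds Jun, Fos, Atf and Maf zipper factors and is thus wider than the Jun and Fos proteins themselves. Its other measured genes had log2 differences above 0, none of them called. Of all named genes 42% lay below 0. The shared direction follows in part from the choice, since junb and fosl1, which lay below 0, are left out with jund, and nothing is read from it. Of the 26 genes listed, 11 were on the array and 7 were measured, the 3 described above and 4 others. None of the other 4 passed the test (limma, adjusted over all probes; 1 had an unadjusted p under 0.05). This count follows from the choice of genes, since the called members of the family are the 3 chosen ones, and nothing is read from it. Their values were 0.71 ± 0.21 (SE) for atf6, a sensor of endoplasmic reticulum stress (adjusted p = 0.0512), 0.53 ± 0.28 for atf6b, 0.27 ± 0.13 for fosb on a cross-hybridising probe and 0.25 ± 0.12 for atf7. The median over these 4 was 0.40, a value on which the choice of genes also bears, since the called members are left out of it. With the replicate number as a block atf6 passed (adjusted p = 0.0108). That fit called more of the named genes, 9.42% lower and 15.4% higher, 24.8% in all.

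The levels of fosb, the other Fos gene measured, were 1.03, 1.47, 1.15 and 1.21 in controls 1 to 4. In DY7 samples 1 to 4 they were 1.47, 1.71, 1.38 and 1.38, so the groups overlapped through control 2. The stress-inducible family member atf3 did not enter the test: it was well above background on 3 of 4 control arrays and on 0 of 4 DY7 arrays. Its signal was 25.5, 8.83, 20.4 and 22.4 on control arrays and 3.90, 4.23, 12.2 and 9.82 on DY7 arrays. The mean scaled level of atf3 was -3.69 ± 0.42 (SD) in controls and -4.64 ± 0.67 in DY7, and no fold is given, since control 2 was itself not well above background. Of the rest on the array, fosl2 was above background on 3 control and 2 DY7 arrays and maff on 2 and 2, and batf on none.

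The other measured genes of the immediate early list had log2 differences below 0, and 1 of them was called. That list leaves out the Jun and Fos genes, which are counted in the AP-1 list, where fosb stood above 0 at 0.27. Of 65 listed, 10 were on the array and 8 measured, 6 of them besides ier2 and per1. All 6 had a log2 difference below 0, as did 42% of named genes, and their median was -0.39 against 0.07 over all named genes. By the test 1 of the 6 fell, crem. Over all named genes 4.93% were called lower. With the replicate number as a block 3 fell, crem, mcl1 and trib1, where 9.42% of named genes were called lower.

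The gene crem encodes CREB-family factors, among them, in mammals, an inducible repressor that ends cyclic AMP responses. Its level was -0.89, -1.29, -1.02 and -0.89 in controls 1 to 4 and -1.77, -1.70, -1.35 and -1.52 in DY7 samples 1 to 4. The groups did not overlap, and crem fell by 0.57 ± 0.13 on the log2 scale (SE, n = 4, limma adjusted p = 0.0258, from 0.00818 to 0.239 over the alternatives). The call was lost without control 1 (adjusted p = 0.0760), control 4 (0.0779), DY7 1 (0.0560) or DY7 2 (0.0734).

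The anti-apoptotic gene mcl1 lay just outside the threshold at -0.42 ± 0.12 (adjusted p = 0.0513; 0.0245 with the replicate block). Its level was 1.00, 0.79, 0.97 and 0.96 on control arrays and 0.65, 0.24, 0.44 and 0.71 in DY7 samples 1 to 4, again without overlap. The values nearest inside the threshold among the 5 chosen genes were those of per1 (-0.48) and jund (0.85). The 4 genes left gave -0.54 ± 0.30 for trib1, a pseudokinase (adjusted p = 0.0277 with the replicate block), -0.35 ± 0.15 for pim3, a kinase gene, -0.27 ± 0.12 for ier5 on a cross-hybridising probe and -0.15 ± 0.10 for klf10, a zinc finger factor. Their groups overlapped. The genes egr3 and gadd45b were on the array but below the background filter (0 of 8 arrays for egr3, 3 control and 2 DY7 arrays for gadd45b).

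**Figure D4:**
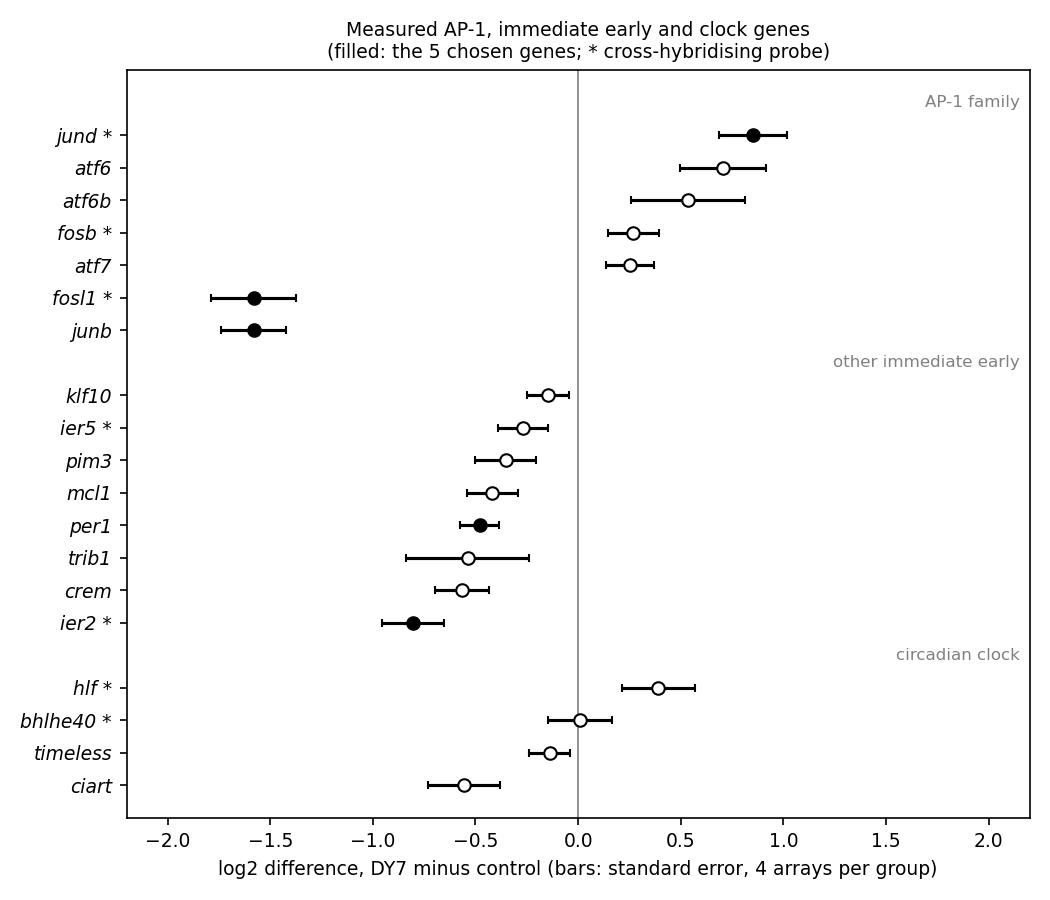
Log2 difference (DY7 minus control) with its standard error for the measured AP-1 family, other immediate early and circadian clock genes, 4 arrays per group; filled points are the 5 chosen genes and asterisks mark cross-hybridising probes. The genes of the other immediate early list, which leaves out the Jun and Fos genes, all lie below 0. The AP-1 family list (Jun, Fos, Atf and Maf zipper factors) divides into junb and fosl1 below 0 and the others, fosb among them, above it.

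Of 5 clock genes measured, per1 is described above and was chosen for its call. None of the other 4 passed (limma; 1 had an unadjusted p under 0.05), where 13.6% of all named genes were called. The median over these 4 was -0.065. The clock repressor gene ciart was nearest, at -0.55 ± 0.18 (SE, adjusted p = 0.0625). Its levels were -2.14, -2.38, -1.78 and -2.40 on control arrays and -3.09, -2.64, -2.72 and -2.46 in DY7 samples 1 to 4, without overlap, and it was above background on 3 of 4 DY7 arrays. The values of hlf (0.39 ± 0.18) and bhlhe40 (0.0094 ± 0.16), both on cross-hybridising probes, and of timeless (-0.14 ± 0.10) were not called. With the replicate block hlf passed (adjusted p = 0.0423). The glucocorticoid list had 2 measured genes, per1 and crhbp, which encodes a protein that binds the stress hormone CRH. The crhbp level fell by 0.50 ± 0.14 (SE, adjusted p = 0.0444), with overlapping groups, and its call was lost without control 1, control 3, control 4, DY7 1, DY7 2 or DY7 3 (adjusted p up to 0.120).

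Of 10 measured genes of the MAP kinase cascades, which act before AP-1, none passed (limma; 2 had an unadjusted p under 0.05), with a median of -0.09. Over all named genes 13.6% were called, so a list of 10 without a call is near that share and is not read as a result. The largest values were 0.71 ± 0.27 for map3k2, a kinase at the top of a cascade (adjusted p = 0.105), and -0.57 ± 0.27 for map3k12 on a cross-hybridising probe (adjusted p = 0.171). The map3k12 difference was -0.27 without control 2, and it was -1.11 within slide 1 and -0.031 within slide 2. The Ras exchange factor gene sos2 stood at -0.33 ± 0.12 without overlap (adjusted p = 0.0931). With the replicate number as a block, 1 of the 10 was higher, map3k2 (adjusted p = 0.00906), and 1 lower, sos2 (adjusted p = 0.0361). That fit called 15.4% of named genes higher and 9.42% lower. The growth factor receptor gene egfr was at 0.060 ± 0.13.

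Of the factors that switch on immediate early genes, 4 were measured and 1 fell, crem, given above. Over all named genes 4.93% were called lower and 13.6% in either direction, and the call counts of the small lists in this paragraph are not read as results. The other values were 0.52 ± 0.28 for elk4, an SRF partner, -0.17 ± 0.096 for crtc1, a CREB coactivator, and 0.088 ± 0.11 for ep300, a histone acetyltransferase. None of 4 genes of Jun and Fos protein turnover passed (limma; 1 had an unadjusted p under 0.05), the nearest being gsk3a, a kinase gene, at 0.38 ± 0.14 (adjusted p = 0.100; 0.0480 with the replicate block). None of 2 measured AP-1 target genes passed (limma; 1 had an unadjusted p under 0.05), with 0.24 ± 0.099 for tgfb1 and -0.25 ± 0.12 for cdkn1a on a cross-hybridising probe. Most members of these lists were not measured on the array.

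In the order of genes of assembly UCB_Xtro_10.0, junb, ier2 and per1 lie on the same chromosome, with 14 protein-coding genes between junb and ier2 and 117 between ier2 and per1. Of the 14, 3 were measured, and none of the 3 was called lower and 1 higher. Of the 117, 8 were measured, with 1 called lower and 3 higher. Over all named genes 4.93% were called lower and 8.67% higher. The genes between were picked by position, with the values of junb, ier2 and per1 known, and a link with position was not tested. The neighbour of junb, hook2, was called higher at 0.90 ± 0.26 (SE, limma adjusted p = 0.0454), with overlapping groups and a call in 8 of 21 alternatives. The values of tnpo2 (0.26 ± 0.13) and nacc1 (-0.051 ± 0.17) were not called.

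The named genes whose levels ran most like junb over the 8 arrays were rnf227 (Pearson's r = 0.991), hnrnpr (0.990), acp7 (0.987), avpr1a, a vasopressin receptor gene (0.985), and depdc5 (0.981). Their log2 differences were -0.78, -0.55, -0.96, -0.71 and -0.76. For jund they were dpep1 (r = 0.990), dolk (0.968), rcor1 (0.965), alpi.1 (0.962) and banf1 (0.961). Such likeness holds the difference between the groups, and it is a description over arrays that share scaling and slide. The genes were picked as the highest of many over 8 arrays, so a high r follows in part from the picking. Taken over deviations from the group means, the genes nearest junb were klhl26 (r = 0.976), trim36 (0.973), snrnp200 (0.966), lrrk2 (0.958) and cpamd8 (0.958), none of which is in the list above. For jund they were tm9sf2 (0.989), sftpb (0.983), eif3c (0.978), dpep1 (0.976) and tfec (0.973), so that dpep1 stood near jund by both measures. Of the genes named in this paragraph, hnrnpr, alpi.1, banf1, snrnp200 and eif3c have cross-hybridising probes, as does jund itself.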

How the data were processed

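Each deposited array file gives spot intensity, unlogged, from Agilent Feature Extraction (10.7.3.1 for slide 1, 10.7.1.1 for slide 2, per the file headers). Its processed intensity has the background removed within the array and carries no scaling between arrays. The flags for background and outliers are other values of the deposited files. The deposited series matrix holds log2 values; each column correlated with the log2 processed intensity of its array at 0.986 or higher, with medians from 5.10 (control 1) to 5.27 (control 2), and how it was centred is not stated in the labels. Control spots and outlier-flagged spots were left out, spots of a probe averaged, and the 75th percentile subtracted. Probes well above background on all 4 arrays of a group and complete on all arrays were tested with limma 3.58.1 in R 4.3.3 (Benjamini-Hochberg, threshold 0.05), and a gene stands by its brightest probe. Names came from RefSeq accessions without versions (assembly UCB_Xtro_10.0), which named 5891 of 32899 probes; 2941 named genes were tested. Deviations of arrays of the same replicate number correlated at r of 0.306, 0.107, 0.455 and 0.449, and such arrays also share a slide, so the 2 cannot be told apart. A fit with the replicate number as a block was therefore run as an alternative. The reported p-values come from the fit without this block and leave any pairing out. The blocked p stands beside each list gene whose call it changes. P-values rest on the spread between these samples, and the number of arrays limits their precision. The members, lists and the rule for named genes (all 5 members, called list members, and AP-1 and immediate early genes by value) were chosen with earlier results of these data known. Uncalled genes of the other lists were named after their values were seen. The normexp alternative used median spot signals, as the files hold no mean signals. The scripts were tested on simulated data.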

Additional observations from a re-analysis of the deposited data

How the results depend on the processing

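All 5 genes kept their direction in every alternative that gave a value (20 for jund and fosl1, 21 for the others); with a filter for all 8 arrays jund and fosl1 were not tested. These alternatives reuse the arrays by which the genes were chosen. The filters on dim probes and the slide and replicate blocks cannot change a difference. The count of alternatives is therefore no separate support. Without scaling the log2 differences were -2.05 for junb, -2.05 for fosl1, -1.28 for ier2, -0.95 for per1 and 0.38 for jund, where the median probe stood at -0.42. Normexp gave -0.96, -0.38, -0.28, -0.37 and 0.24 in that order, and with extreme local backgrounds repaired -1.06 for junb, -0.44 for fosl1, -0.32 for ier2 and 0.28 for jund; the offset shrinks dim probes by construction. Scaling to the median gave -0.60 for per1. Leaving out 1 array gave -1.73 to -1.50 for junb, -1.68 to -1.42 for fosl1, -0.93 to -0.68 for ier2, -0.52 to -0.45 for per1 and 0.74 to 0.99 for jund.

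The count of changed probes was 2867 (1839 higher, 64.1%), and with the replicate number as a block 5124; this block left the 5 differences as they were. The count was 719 without scaling (4.73% higher), 1896 with normexp (54.2% higher), 562 with no filter on dim probes, 6 within slide 1 and 0 within slide 2 (limma, 3308 with an unadjusted p under 0.05). Of named genes 400 were called, and 389 when p-values were adjusted over named genes alone. Calls were 54.3% higher with quantile normalization and 43.8% with scaling to the median. Leaving out 1 array gave 1091 to 3323 probes, with 1091 without DY7 2, 1191 without DY7 3, 1147 without control 1 and 1094 without control 4. Of the other genes of the 8 pathway lists, which leave out the larval, gastrula and blood markers, 2 were called, crem and crhbp. That count was 9 with the replicate block, 5 with quantile normalization or the series matrix values, 4 with scaling to the median or the filter for all 8 arrays, 1 with either normexp setting, and 0 without scaling, with no dim-probe filter or within a slide. It was 0 to 6 when 1 array was left out: 0 without control 1, control 4, DY7 1 or DY7 2, 1 without DY7 3, 6 without DY7 4 and 5 without control 2. With Spearman's rho, 1 of the 5 genes most like junb was the same. The cause of these changes was not tested. Probes near background (fosl1, ier2, jund) are limited by signal over background.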
